A study of Mus musculus with 12 samples.

Results

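The transcription factors Tbx3, Tbx2, Irx3, Irx5, Id2, Etv1, Shox2 and Isl1, which regulate the cardiac conduction system, were followed in adult mouse left ventricles after deletion of Nkx2-5 in ventricular trabeculae before birth. They were found by their gene names in the scanner output, which gave 8 genes with 9 probes of 34844 gene names with 55681 probes on the array. Of the 8 genes, 6 passed the filter on background, with 1 probe each, and were tested, and Shox2 and Isl1 did not. In hearts with the earlier deletion (TrbE10) 1 of the 6 was called, where 2.15% of all genes tested were called. This was Id2, which rose by 1.19 on the log2 scale (standard error 0.24, limma adjusted p = 0.0358, n = 4 against 4). In hearts with the later deletion (TrbE14) and between the mutants limma called 0 of 6, where 0.76% and 0% of all genes were called.

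RNA came from the left ventricular free wall with the apex and without the interventricular septum of mice aged 6 months, 1 mouse per array and 4 arrays per group. All mice carried a floxed Nkx2-5 allele. The Nkx2-5ΔTrbE10 mice (TrbE10, named Nkx2-5Δtrab in the labels) and the Nkx2-5ΔTrbE14 mice (TrbE14, named Nkx2-5Δcomp) also carried Cx40-creERT2, a tamoxifen-inducible Cre made from the locus of Gja5, the gene for connexin 40, which is expressed in trabecular muscle, in atrial muscle and in endothelium of arteries. Tamoxifen was given to the pregnant mothers on embryonic days E10.5 and E11.5 (TrbE10) or E13.5 and E14.5 (TrbE14). By the methods, controls were Cre-negative littermates with Nkx2-5-ΔNeo fl/fl and Cx40+/+ alleles, whereas the labels call them not injected. Newborns of tamoxifen-treated mothers were delivered surgically and reared by CD1 foster mothers. The samples thus hold whole ventricular wall, in which deleted and undeleted myocytes and all other cells are mixed, and no conduction tissue was dissected.

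The conduction system starts and spreads the heartbeat, from the sinoatrial node through the atrioventricular node to the bundle branches and the Purkinje fibres, which arise from the trabeculae of the embryonic ventricle. Nkx2-5, a homeodomain factor, is needed for this system to form, and the factors followed here sort it into slow nodal and fast ventricular parts. Tbx3, Tbx2, Shox2 and Isl1 belong to the nodes, and Irx3, Irx5, Id2 and Etv1 to the ventricular part, although several of them are also active in other cells of the heart.

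Each value below is the log2 of the background-subtracted intensity after quantile normalization, so that a step of 1 is a doubling. The array reports each gene through a probe of 60 bases, and levels of different probes are not comparable. The sequences of 3 probes are shown because the results for Id2 and for Etv1 rest on them; the first 30 bases of each are given as the scanner output holds them.
Id2 probe: tgagtgaaccttgtggactctttaattaga
Etv1 probe 1: tcacaggccagtagcattttatgtatctgg
Etv1 probe 2: gactctgacttactctaacggatcaaaaga
In the coordinates of the array's annotation (mm9), the Id2 probe lies at chr12:25778904-25778963 on the minus strand. Etv1 probe 1 lies at chr12:39593054-39593113 and probe 2 at chr12:39594622-39594681, both on the plus strand, and in the transcript probe 2 starts 1568 bases beyond probe 1.

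Depth, batch and the targeted gene bear on every value. Between 22885 and 26149 probes were well above background on an array, no spot was saturated (0 on every array), and precision is limited by how many arrays there were. Slide 1 held the control and TrbE14 arrays and slide 2 the TrbE10 arrays. Slide and TrbE10 thus cannot be told apart, while TrbE14 and control were compared within 1 slide. In both mutants deletion came with the Cre allele, which controls lacked by the methods, so that these cannot be told apart either. If controls were not injected, as the labels say, tamoxifen came with deletion too. Y-linked signal was present in 1 control, 2 TrbE10 and 3 TrbE14 hearts. The methods give 4 mice for each group and the labels number 4 replicates, so that p-values measure the spread between mice. Nkx2-5, the targeted gene, had log2 signals of 11.95, 12.23, 11.93 and 11.89 in control hearts, 11.27, 11.67, 11.21 and 11.22 in TrbE10 hearts, and 11.12, 11.57, 11.32 and 11.63 in TrbE14 hearts. It fell by 0.66 in TrbE10 hearts (limma adjusted p = 0.0459), and in TrbE14 hearts the change was -0.59 (limma adjusted p = 0.106), with no overlap with control in either mutant. The call was lost without any 1 array except TrbE10 replicate 2 (limma adjusted p up to 0.130). Whether its probe lies within the deleted part is not given in the sources used here. The change of Gja5, whose locus carries the Cre allele, was -0.64 and -0.47 (limma adjusted p = 0.410 and 0.572), with overlapping arrays. A second, dimmer probe of Gja5 was well above background on 3 of 4 control arrays and on 0 of 4 arrays of each mutant, at 4.70 to 5.38 in control, up to 4.95 in TrbE10 and up to 4.85 in TrbE14 hearts. In such bulk RNA, fewer cells of a type and less RNA per cell cannot be told apart. Of 10 ventricular myocyte genes, all well above background on 12 of 12 arrays, limma called 0 in either mutant, SAM called 0, and 2 in TrbE10 and 1 in TrbE14 hearts had an unadjusted p under 0.05. Of all 24593 probes tested, 4022 in TrbE10 and 3340 in TrbE14 hearts had such a p by limma.

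The first question was which of the factors the adult ventricle expressed. The probes of Tbx3, Tbx2, Irx3, Irx5 and Id2 and probe 1 of Etv1 were well above background on 12 of 12 arrays. Shox2 and Isl1, which direct pacemaker cells of the sinoatrial node, were well above background on 0 of 12 arrays. The Isl1 probe, at chr13:117088774-117088833 (mm9, minus strand), was spotted 10 times on each array, and its log2 signal stayed between 2.41 and 2.50 throughout. For Shox2, whose probe spans chr3:66779435-66779814 (mm9, minus strand), the log2 signal lay between 2.29 and 2.38 in control, between 2.31 and 3.53 in TrbE10 and between 2.33 and 4.05 in TrbE14 hearts, all not well above background. The probes of Etv1 disagreed. Probe 1 read from 9.69 to 10.23 over all arrays, and probe 2 was well above background on 1 array, TrbE14 replicate 1, where it read 4.95, against 2.37 to 3.15 on the other arrays.

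**Figure D1:**
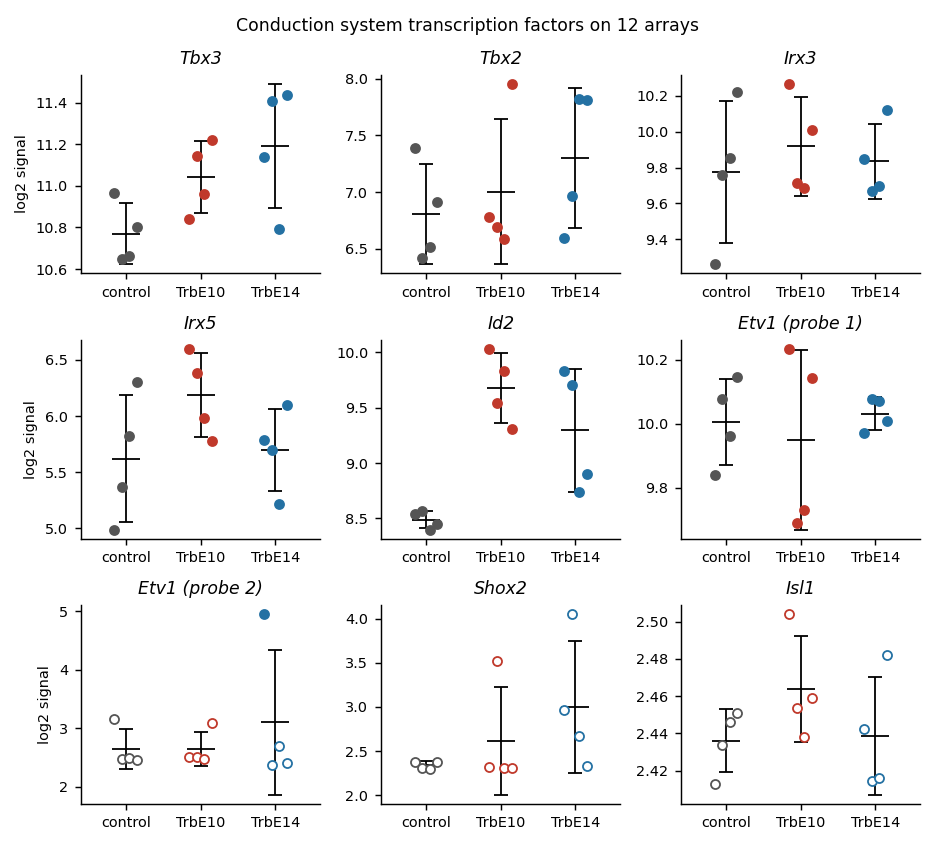
Log2 signal (vertical axis, quantile-normalized) of the 9 probes of the 8 conduction system transcription factors on 12 arrays in control, TrbE10 and TrbE14 hearts (horizontal axis). Each point is 1 heart, filled where the probe was well above background and open where it was not, bars are mean ± SD (n = 4), and vertical axes differ between panels. For Id2 every mutant heart lies above every control heart, while for the other 5 genes above background the groups overlap.

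Id2 encodes a helix-loop-helix protein without a DNA-binding region, which holds other helix-loop-helix factors in inactive pairs and is needed for the ventricular conduction system. Its log2 signals in control hearts were 8.54, 8.57, 8.40 and 8.45. In TrbE10 hearts they were 10.03, 9.54, 9.84 and 9.31, and in TrbE14 hearts 9.83, 9.71, 8.74 and 8.90. All mutant hearts lay above all control hearts, and in TrbE14 hearts 2 values lay within the range of TrbE10 and 2 lay below it, nearer to control. The standard deviation was 0.079 in control, 0.32 in TrbE10 and 0.55 in TrbE14 hearts.

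Against control, Id2 rose 2.28-fold in TrbE10 hearts (log2 change 1.19, standard error 0.24, 95% confidence interval 0.66 to 1.72, limma adjusted p = 0.0358), and in TrbE14 hearts the fold change was 1.75 (log2 change 0.81, 95% confidence interval 0.27 to 1.34, limma adjusted p = 0.202). An exact two-sided permutation test over the 8 arrays gave p = 0.0286 for each mutant, the smallest that 4 against 4 arrays allow. TrbE10 exceeded TrbE14 by 0.38 (95% confidence interval -0.15 to 0.92, limma adjusted p = 0.939), so that a difference between the stages of deletion was not shown, nor was its absence. The call in TrbE10 hearts was lost when any of 6 of the 8 arrays was left out, namely each of the 4 control arrays and TrbE10 replicates 1 and 3, with limma adjusted p from 0.0409 to 0.103 over the 8 fits. Without a background filter, which leaves the change as it is but adds tests, the limma adjusted p was 0.0981.

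Of the 6 factors tested, 1 was called higher in TrbE10 hearts (Id2), where 1.36% of all genes were called higher, and 0 of 6 were called lower, where 0.788% of all genes were. Arrays of TrbE10 and control did not overlap for 1 of the 6, again Id2, with the mutant higher as in 4.94% of all genes, and for 0 of 6 with the mutant lower as in 5.63%. In TrbE14 hearts limma called 0 of 6 higher and 0 of 6 lower, against 0.583% and 0.178% of all genes. There Id2 and Tbx3 (2 of 6) had an unadjusted p under 0.05, as did 3340 of all 24593 probes tested, and SAM called 0. Arrays of TrbE14 and control did not overlap for Id2 (1 of 6), with the mutant higher as in 4.65% of all genes, and for 0 of 6 with the mutant lower as in 5.43%. Between the mutants limma called 0 of 6, SAM called 0, and 0 had an unadjusted p under 0.05, against 1417 of all 24593 probes tested. The arrays of the mutants overlapped for all 6, against 1.64% of all genes with TrbE10 above TrbE14 throughout and 1.73% below. The median change of the 6 was 0.23 in TrbE10 and 0.25 in TrbE14 hearts, against -0.02 and -0.03 over all genes. Both mutants were set against the same control arrays.

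**Figure D2:**
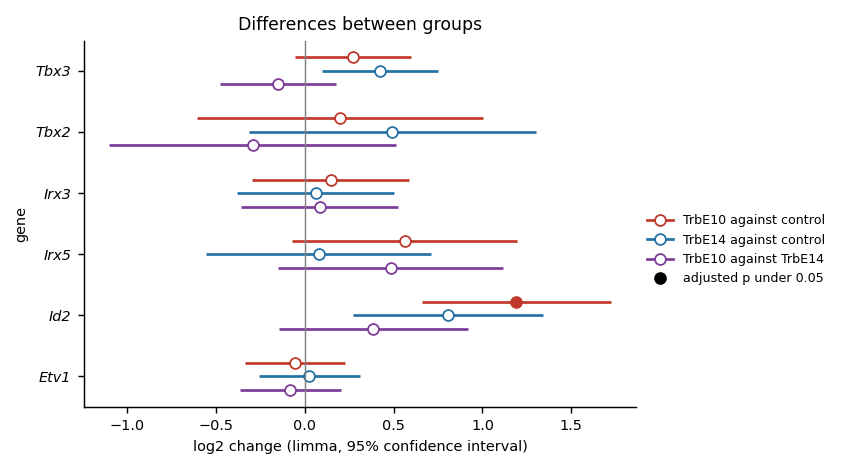
Log2 change of the 6 conduction system transcription factors that passed the filter (horizontal axis) in 3 comparisons, with 95% confidence intervals from limma over 12 arrays. Filled points have an adjusted p under 0.05. Id2 in TrbE10 against control, at 1.19, is the 1 filled point, and its intervals against control lie above 0 in both mutants, as does that of Tbx3 in TrbE14 hearts.

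Because Id2 was the factor that was called, the 250 bases before its transcription start are shown, at chr12:25096093-25096342 on the minus strand in GRCm38.p6, from RefSeq. Capitals mark GGCGCC, a sequence bound by SMAD proteins of the BMP pathway, and CCAAT, the box bound by the factor NF-Y, on either strand.
Id2 promoter: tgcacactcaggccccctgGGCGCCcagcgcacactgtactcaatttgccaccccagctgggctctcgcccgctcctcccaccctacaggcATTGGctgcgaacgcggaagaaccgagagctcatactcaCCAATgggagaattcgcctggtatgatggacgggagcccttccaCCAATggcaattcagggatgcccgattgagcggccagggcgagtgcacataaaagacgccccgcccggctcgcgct
GGCGCC occurred 1 time, 231 bases before the start, and 9.59% of all 32851 promoters of this length hold it. CCAAT or its complement occurred 3 times, against 33.8% of promoters with at least 1 match. The E-box CANNTG occurred 1 time, against 66.2% of promoters. TNAAGTG, a site of the Nkx2-5 protein, and AGGTGTG, a T-box site, were searched on both strands and were not in this window (0 matches each, against 10.1% and 5.1% of promoters). Promoters were found for 5 of the 8 genes, and TNAAGTG and AGGTGTG were in none of their 6 windows (0 matches), those of Irx3, Id2, Etv1 (2 starts), Shox2 and Isl1. GGCGCC was also in the Isl1 window, 2 times. A match is a description of the sequence only.

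Tbx3 and Tbx2 encode T-box repressors that keep working muscle genes off in the nodes and the atrioventricular canal. The Tbx3 probe lies at chr5:120134511-120134570 and the Tbx2 probe at chr11:85655391-85655450 (mm9, plus strand). Tbx3 read 10.97, 10.65, 10.66 and 10.80 in control hearts, 10.84, 11.14, 10.96 and 11.22 in TrbE10 hearts, and 11.14, 11.41, 10.79 and 11.44 in TrbE14 hearts. Control was lowest on average and TrbE14 highest, and each mutant overlapped with control. The change of Tbx3 was 0.27 in TrbE10 hearts (95% confidence interval -0.06 to 0.60, limma adjusted p = 0.399) and 0.42 in TrbE14 hearts (95% confidence interval 0.10 to 0.75, limma adjusted p = 0.261, unadjusted 0.0158). Exact permutation tests gave p = 0.0857 for Tbx3 in each mutant.

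Tbx2 varied within each group by more than the group means differed. Its log2 signals were 7.39, 6.42, 6.51 and 6.91 in control, 6.78, 6.69, 6.59 and 7.96 in TrbE10, and 6.60, 6.96, 7.82 and 7.81 in TrbE14 hearts. TrbE10 replicate 4 stood far above the other 3 hearts of its group. Hearts with Y-linked signal read 7.39 in control, 6.69 and 7.96 in TrbE10, and 6.96, 7.82 and 7.81 in TrbE14. Hearts without Y-linked signal read from 6.42 to 6.91. The part of sex in this spread was not tested. The change of Tbx2 was 0.20 in TrbE10 hearts (95% confidence interval -0.61 to 1.00, limma adjusted p = 0.833), and it was -0.12 when replicate 4 of TrbE10 was left out. In TrbE14 hearts it was 0.49 (95% confidence interval -0.31 to 1.30, limma adjusted p = 0.560). With Y-linked signal as a covariate, the change of Tbx2 was 0.0059 in TrbE10 and 0.11 in TrbE14 hearts.

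Among 16 genes of the T-box family, 10 were tested. Tbx18 and Tbx20 rose and Tbx1 fell in TrbE10 hearts, and in TrbE14 hearts Tbx20 rose. Tbx18, which marks the epicardium and the sinus horns, rose by 1.40 in TrbE10 hearts (limma adjusted p = 0.0292), with 2 of 4 control arrays well above background, and by 0.59 after normexp, another background correction (limma adjusted p = 0.0170). Tbx20, a T-box factor of heart muscle and endocardium, has 3 tested probes that disagreed in size. The brightest probe of Tbx20 had changes of 0.50 and 0.37 (limma adjusted p = 0.121 and 0.311), and a second rose by 1.23 and 1.27 (limma adjusted p = 0.0237 and 0.0341). The third was not well above background on any control array (0 of 4), so that only a bound can be given, against the mean over control arrays of the dimmest signal well above background or the probe's own signal, whichever was higher. By this bound it was at least 3.56-fold higher with the earlier deletion and at least 3.05-fold higher with the later (limma adjusted p = 0.0237 and 0.0640). Tbx1 fell by 0.74 in TrbE10 hearts (limma adjusted p = 0.0208), and its change in TrbE14 hearts was -0.62 (limma adjusted p = 0.0729). Tbx10 lay below all control arrays in TrbE10 hearts without being called, at -0.56 (limma adjusted p = 0.366), and overlapped with control in TrbE14 hearts, at -0.53 (limma adjusted p = 0.441). The median over the 10 genes was 0.01 and -0.13.

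Irx3 and Irx5 encode Iroquois homeodomain factors. Irx3 regulates connexin genes in the bundle branches and Purkinje fibres, and Irx5 sets the gradient of repolarization across the ventricular wall, in part by repressing Kcnd2. Irx3 read 9.26, 9.76, 9.85 and 10.22 in control hearts, 10.27, 9.71, 9.68 and 10.01 in TrbE10 hearts, and 9.85, 9.67, 9.70 and 10.12 in TrbE14 hearts. The groups of Irx3 overlapped throughout, and its change was 0.14 in TrbE10 and 0.06 in TrbE14 hearts (limma adjusted p = 0.768 and 0.908). Irx5 read 4.99, 5.37, 5.82 and 6.30 in control, 6.60, 6.38, 5.98 and 5.78 in TrbE10, and 5.78, 5.70, 5.22 and 6.10 in TrbE14 hearts. On average TrbE10 was highest for Irx5, the means of control and TrbE14 differed by less than their spread, and all groups overlapped. The change of Irx5 was 0.56 in TrbE10 hearts (95% confidence interval -0.07 to 1.20, limma adjusted p = 0.363) and 0.08 in TrbE14 hearts (limma adjusted p = 0.919).

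The other Iroquois genes were read for comparison. Of 6 family members 5 were tested, and limma and SAM called 0 of 5 in either mutant, with 0 in TrbE10 and 2 in TrbE14 hearts at an unadjusted p under 0.05 by limma. Of all 24593 probes tested, 4022 in TrbE10 and 3340 in TrbE14 hearts had such a p. Irx1 and Irx2, which neighbour each other in the genome, had control arrays above all TrbE14 arrays, and this was so for 2 of 5 family genes, against 5.43% of all genes. The change in TrbE14 hearts was -1.01 for Irx1 (standard error 0.27, limma adjusted p = 0.154) and -1.48 for Irx2 (standard error 0.52, limma adjusted p = 0.259). In TrbE10 hearts Irx1 and Irx2 overlapped with control, with changes of -0.56 and -0.44 (limma adjusted p = 0.339 and 0.720). Irx4, the ventricular member, had changes of 0.23 and 0.14 (limma adjusted p = 0.707 and 0.823).

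Irx3 and Irx5 lie in 1 gene cluster on chromosome 8, with their probes 562 kb apart (mm9), at chr8:94322476-94322535 on the minus and chr8:94884923-94884982 on the plus strand. Over the 12 arrays their log2 signals correlated with Pearson's r = 0.753 (permutation p = 0.00485) and Spearman's rho = 0.657 (permutation p = 0.0244). Of 15 pairs among the 6 factors this was the highest r, with a permutation p adjusted over the 15 pairs of 0.0728, so that it did not pass the correction. Without the 2 arrays farthest from the median of Irx3, r was 0.457, over a narrower range of Irx3. After removal of group means r was 0.780 over the 12 arrays. Within slide 1, over 8 control and TrbE14 arrays, r was 0.918, and slide 2 held too few arrays (4). The next highest was Irx3 with Etv1, at r = 0.627 (adjusted permutation p = 0.220), and the other 13 pairs lay between -0.27 and 0.47. In control hearts Irx3 and Irx5 both rose in order from replicate 1 to 4. So did the dimmest signal well above background on each array, at 3.88, 4.42, 4.67 and 4.80. Among TrbE14 arrays replicate 3 had the lowest such value (3.79) and the lowest Irx5, but not the lowest Irx3. In TrbE10 hearts neither factor followed the order of this value. The part of such differences between arrays in the correlation of Irx3 and Irx5 was not tested.

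**Figure D3:**
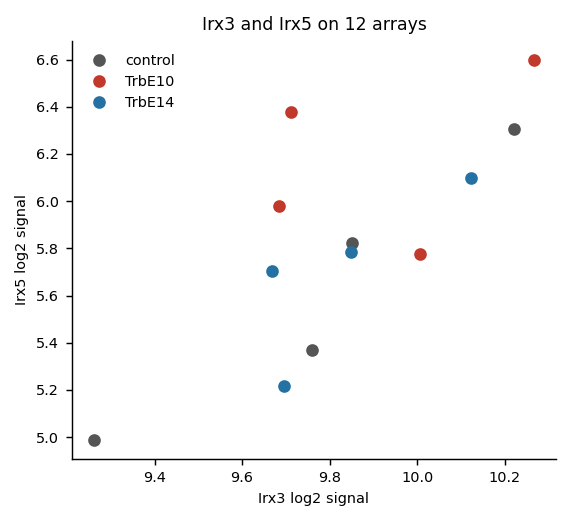
Log2 signal of Irx3 (horizontal axis) and Irx5 (vertical axis) on 12 arrays, 1 point per heart, coloured by group. Hearts with a higher Irx3 signal tend to have a higher Irx5 signal, from 9.26 and 4.99 in the lowest control to 10.27 and 6.60 in the highest TrbE10 heart, with the groups mixed (r = 0.753, n = 12).

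Etv1 encodes an ETS factor that acts below neuregulin in fast-conducting atrial and Purkinje myocytes. Probe 1 read 9.84, 10.08, 9.96 and 10.15 in control hearts, 10.23, 9.69, 9.73 and 10.14 in TrbE10 hearts, and 9.97, 10.08, 10.07 and 10.01 in TrbE14 hearts. The mean of Etv1 was 10.01 in control, 9.95 in TrbE10 and 10.03 in TrbE14 hearts. The change of Etv1 was -0.06 in TrbE10 hearts (95% confidence interval -0.34 to 0.23, limma adjusted p = 0.866) and 0.02 in TrbE14 hearts (95% confidence interval -0.26 to 0.31, limma adjusted p = 0.943). Of 16 genes of its pathway 13 were tested, and Nrg1 and Etv4 (2 of 13) were called with the earlier deletion and Etv4 (1 of 13) with the later, all higher. Over all genes 1.36% were called higher with the earlier deletion and 0.583% with the later. Nrg1, the gene for neuregulin 1, rose by 1.43 in TrbE10 hearts (limma adjusted p = 0.0147) and by 0.75 after normexp (limma adjusted p = 0.0225), and its change in TrbE14 hearts was 0.79 (limma adjusted p = 0.202). Etv4, a close relative of Etv1, rose by 0.84 and 1.05 (limma adjusted p = 0.00754 and 0.00276). Etv5, the third of these relatives, had changes of 0.66 and 0.35 (limma adjusted p = 0.105 and 0.433). The receptor genes Erbb2 and Erbb4 had changes of 0.21 and -0.23 in TrbE10 hearts (limma adjusted p = 0.438 and 0.441).

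Id proteins pair with E proteins, encoded by Tcf3, Tcf4 and Tcf12. All 7 genes of this list were tested, and the median change was 0.63 in TrbE10 and 0.72 in TrbE14 hearts. Limma called 1 of 7 (Id2) in TrbE10 hearts and 0 of 7 in TrbE14 hearts, against 2.15% and 0.76% of all genes. In TrbE14 hearts SAM called 1 (Id3) and 5 had an unadjusted p under 0.05 by limma, as did 3340 of all 24593 probes tested. Id3 had no overlap with control, at 11.35 to 11.75 in control, 11.90 to 12.72 in TrbE10 and 12.02 to 12.48 in TrbE14 hearts. The change of Id3 was 0.73 in TrbE10 hearts (standard error 0.17, limma adjusted p = 0.0618) and 0.72 in TrbE14 hearts (limma adjusted p = 0.103). Id1 had changes of 0.63 and 0.95 (limma adjusted p = 0.519 and 0.382) and Id4 of 1.20 and 1.27 (limma adjusted p = 0.278 and 0.318), each with overlap. Tcf4 did not overlap with control, at changes of 0.20 and 0.19 (limma adjusted p = 0.217 and 0.303). Arrays did not overlap, with mutants higher, for 3 of 7 genes in each mutant (Id2, Id3 and Tcf4), against 4.94% and 4.65% of all genes.

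The BMP pathway lies upstream of Id genes and of Tbx2 in the developing heart. Of 21 genes 16 were tested, and Bmp10 and Smad6 were called higher in both mutants, Bmp10 after passing the filter through mutant arrays alone. Over all genes 1.36% in TrbE10 and 0.583% in TrbE14 hearts were called higher. Bmp10, a ligand of trabecular and atrial muscle, was well above background on 0 of 4 control arrays and on 4 of 4 of each mutant, at least 4.56-fold higher in TrbE10 and 5.17-fold in TrbE14 hearts (limma adjusted p = 2.53e-04 and 2.82e-04). These bounds hold for quantile-normalized signals, since the fitted change of Bmp10 was 1.56 and 1.54 after normexp and 1.60 and 1.75 on the deposited values (limma adjusted p from 0.00158 to 0.0430). Smad6, an inhibitor that the pathway itself induces, rose by 2.19 and 2.10 (standard error 0.20, limma adjusted p = 4.30e-04 and 8.15e-04), from 7.47 to 8.16 in control to 9.45 to 10.38 in TrbE10 and 9.68 to 9.96 in TrbE14 hearts. Smad7, a second inhibitor, had changes of 1.37 and 1.17 (limma adjusted p = 0.127 and 0.260), and Smad9 of 1.09 and 0.65 (limma adjusted p = 0.113 and 0.390), with 1 of 4 control arrays well above background for Smad9. The ligand gene Bmp2 lay below all control arrays in TrbE10 hearts without being called, at -0.29 (limma adjusted p = 0.450), and overlapped with control in TrbE14 hearts, at -0.22 (limma adjusted p = 0.598). Over the 16 genes the median change was 0.09 and 0.12.

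Bmp10 is also 1 of 10 atrial myocyte markers, of which 9 were tested. Their summed linear signal lay between 14760 and 75860 in control hearts, between 45060 and 166800 in TrbE10 hearts and between 82210 and 100400 in TrbE14 hearts, above control in TrbE14 hearts and overlapping with it in TrbE10 hearts. Such a sum weighs bright genes most. Nppa, 1 of the 9, had log2 signals of 12.93 to 15.04 in control, 14.72 to 16.96 in TrbE10 and 15.42 to 16.15 in TrbE14 hearts. Of the 9 changes, 5 were positive in TrbE10 and 7 in TrbE14 hearts. Besides Bmp10, Sln and Dkk3 rose by 3.80 and 1.62 in TrbE10 hearts (limma adjusted p = 0.0177 and 0.0459), and Stard10 fell by 0.66 (limma adjusted p = 0.0482). In TrbE14 hearts Sln, the gene for sarcolipin, Dkk3 and Stard10 had changes of 3.33, 1.46 and -0.19 (limma adjusted p = 0.0511, 0.106 and 0.576). The part of atrial cells in the change of Bmp10 was not tested.

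The genes whose pattern was most like that of each factor were read over the 12 arrays among 11957 other genes, as a description. For Id2 they were Rab32 (r = 0.983), Cdk19 (r = 0.939) and Tbx20 (r = 0.939), and after removal of group means r was 0.944, 0.857 and 0.860. Rab32, a small GTPase gene of membrane traffic, rose by 1.29 in TrbE10 hearts (limma adjusted p = 0.0190), and its change in TrbE14 hearts was 0.86 (limma adjusted p = 0.134). For Tbx3 the 3 were Nasp, Gm7160 and Casp8ap2 (r from 0.848 to 0.914), and for Tbx2 they were Ahctf1, Pogz and Tnfrsf4 (r from 0.933 to 0.937). For Irx3 they were Sft2d3, Smyd4 and Cyp20a1 (r from 0.822 to 0.879), and for Irx5 they were A130010J15Rik, Mid1ip1 and Smyd4 (r from 0.867 to 0.903). Smyd4 thus stood in both Iroquois lists, whose factors themselves correlated on these arrays (r = 0.753). For Etv1 they were Ddx39b, Gas7 and Ccdc114 (r from 0.819 to 0.840).

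Other cells of the ventricle can also express these factors, and Id2 is known in dendritic and innate lymphoid cells. Of 14 macrophage and dendritic cell markers 12 were tested. Of these, 5 in TrbE10 (Cd207, C1qa, Csf1r, Cd68 and Itgam) and 2 in TrbE14 hearts (Cd207 and Csf1r) were called higher, against 1.36% and 0.583% of all genes. Their summed linear signal lay between 16860 and 18630 in control hearts, between 25370 and 29160 in TrbE10 hearts, and between 22550 and 26640 in TrbE14 hearts, above control throughout. Of the dendritic cell markers, Batf3 was well above background on 12 arrays, Cd207 on 8, Flt3 on 7 and Xcr1 on 0. For Cd207 these were 0 of 4 control arrays and 4 of 4 of each mutant, so it passed the filter through mutants alone. Its mean log2 signal was 3.45 in control, 10.79 in TrbE10 and 10.38 in TrbE14 hearts. The summed signal of 8 lymphocyte and innate lymphoid markers lay between 1678 and 2189 in control hearts, between 1617 and 2194 in TrbE10 hearts and between 1636 and 2087 in TrbE14 hearts, and Cd8a, Ms4a1, Klrb1c and Ncr1 were well above background on 0 arrays. The sums of 10 fibroblast markers (101300 to 109900 in control, 122600 to 144700 in TrbE10 and 131400 to 154900 in TrbE14 hearts), of 10 endothelial and endocardial markers (48840 to 53370, 54760 to 80750 and 58640 to 82550) and of 6 epicardial and mesothelial markers (749.7 to 1423, 1574 to 2934 and 1392 to 2226) were also higher in mutants, the last with overlap in TrbE14 hearts. In this last list, of which Tbx18 is 1 of the 6 genes summed, Wt1 and Aldh1a2 were well above background on 12 arrays, Tbx18 and Msln on 10, Krt19 on 9, Krt8 on 4, Upk3b on 3, and Upk1b and Lrrn4 on 0. Krt19, a keratin gene, was called higher in both mutants (limma adjusted p = 0.00122 and 0.00341), with 3.38 to 5.39 and 1 of 4 arrays well above background in control, 7.35 to 8.84 in TrbE10 and 7.38 to 7.98 in TrbE14 hearts. Of the other lists Dcn, a fibroblast gene, and Vwf, an endothelial gene, were called higher in both mutants, by 0.39 and 0.50 (limma adjusted p = 0.0376 and 0.0190) and by 1.09 and 1.03 (limma adjusted p = 0.0215 and 0.0451). The endothelial and endocardial genes Npr3 and Eng and the mural cell gene Pdgfrb were called higher in TrbE10 hearts, by 1.24, 0.71 and 0.37 (limma adjusted p = 0.0247, 0.0412 and 0.0444), and had changes of 1.00, 0.72 and 0.41 in TrbE14 hearts (limma adjusted p = 0.0967, 0.0642 and 0.0511). The sums of 10 smooth muscle and pericyte, 5 adipocyte and 8 neuron and Schwann cell markers overlapped with control in both mutants. Limma called 0 of the adipocyte and 0 of the neuron and Schwann cell markers. Median changes were -1.35 and -0.41 for adipocyte markers and -0.21 and -0.18 for neuron and Schwann cell markers in TrbE10 and TrbE14 hearts. The part of these cell types in the change of Id2 and in that of Tbx18 was not tested.

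Last, genes that carry out conduction were compared, since several are controlled by the factors above. Of 28 effectors and markers 21 were tested. Among those that did not pass the filter were Cntn2 and Gjd3, which mark Purkinje fibres and nodes, Hcn4, Cacna1d, Kcne1 and Vsnl1. With the earlier deletion 3 of the 21 were called lower (Pcp4, Scn10a and Kcnd2), against 0.788% of all genes, and with the later 1 (Pcp4), against 0.178%. Pcp4 passed the filter through the control arrays alone. With the filter on 9 of 12 arrays, 2 were called in TrbE10 hearts (Scn10a and Kcnd2) and 0 in TrbE14 hearts. Limma called 0 of the 21 higher, with Nppa and Sema3a at an unadjusted p under 0.05 in both mutants. The median change was -0.20 and -0.14.

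Pcp4, which encodes a calmodulin-binding protein of Purkinje fibres, was well above background in all 4 control hearts, at 5.35 to 6.02, and in 0 of 4 hearts of each mutant. It was at least 2.21-fold lower in TrbE10 and 2.48-fold lower in TrbE14 hearts (limma adjusted p = 0.0181 and 0.00605). On the deposited normalized values the fitted change of Pcp4 was -0.63 and -0.67 (limma adjusted p = 0.0261 and 0.0382), and after normexp it was -0.48 and -0.47, below these bounds in size. Scn10a, a sodium channel gene expressed in the conduction system, read 7.68, 7.84, 7.52 and 8.05 in control hearts, 6.91, 6.56, 5.35 and 5.86 in TrbE10 hearts and 6.28, 6.58, 6.08 and 6.37 in TrbE14 hearts. All mutant hearts lay below all control hearts. Scn10a fell by 1.60 in TrbE10 hearts (limma adjusted p = 0.0208), and its change in TrbE14 hearts was -1.44 (limma adjusted p = 0.0523). After normexp Scn10a fell by 0.89 and 0.96 (limma adjusted p = 0.00750 and 0.00722). The call of Scn10a in TrbE10 hearts was lost without a filter and with 2 groups only (limma adjusted p = 0.0628 and 0.0649), and in TrbE14 hearts it was gained with the deposited normalized values and with 2 groups only (limma adjusted p = 0.0409 and 0.00869).

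Kcnd2, the gene for a channel of the transient outward potassium current, fell by 0.56 in TrbE10 hearts (standard error 0.11, limma adjusted p = 0.0318), with 9.65 to 9.97 in control and 9.10 to 9.39 in TrbE10 hearts. In TrbE14 hearts the change of Kcnd2 was -0.14 (limma adjusted p = 0.578). Without overlap but not called were Kcnk3, Cpne5 and Sema3a in TrbE10 hearts, at -0.37, -0.58 and 1.75 (limma adjusted p = 0.0784, 0.211 and 0.0918), and Nppa in TrbE14 hearts, at 1.65 (limma adjusted p = 0.240). Sema3a was well above background on 1 of 4 control arrays, where it read 2.76 to 5.13 over the group. The probes of Cacna1g, a T-type calcium channel gene, disagreed in overlap. Its dimmer probe read 6.88 to 7.47 in control, 5.95 to 6.81 in TrbE10 and 6.20 to 6.88 in TrbE14 hearts, without overlap, at changes of -0.77 and -0.57 (limma adjusted p = 0.103 and 0.288). Its brightest probe overlapped with control, at -0.55 and -0.43 (limma adjusted p = 0.160 and 0.332). The connexin genes Gja1 and Gjc1, of which Gja1 is a target of Irx3 and Tbx3, had changes between -0.27 and -0.02 in both mutants (limma adjusted p from 0.661 to 0.953).

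Of 20 transcription factors that work with these, 18 were tested. Hey1, a target of Notch in trabecular endocardium and muscle, rose by 0.88 and 1.09 (limma adjusted p = 0.00398 and 0.00161), and Tbx18, Tbx20 and Nkx2-5 are given above. Hopx, a homeodomain-only factor of the conduction system that lies below Nkx2-5, had mutant arrays below all control arrays in both mutants, at -0.78 and -0.51 (limma adjusted p = 0.0681 and 0.283). Gata4, a zinc finger factor of heart muscle, lay above all control arrays in TrbE14 hearts without being called, at 0.23 (limma adjusted p = 0.449), and its change in TrbE10 hearts was 0.06 (limma adjusted p = 0.859). Tbx5, which acts with Nkx2-5 on Id2, had changes of -0.14 and -0.15 (limma adjusted p = 0.805 and 0.786). Of the 6 tested genes that share families or complexes with Isl1 and Shox2, Prrx2, a homeobox gene of mesenchyme related to Shox2, rose by 1.27 in TrbE10 hearts (limma adjusted p = 0.0420), with 2 of 4 control arrays well above background. After normexp the change of Prrx2 in TrbE10 hearts was 0.53 (limma adjusted p = 0.0802), and its call was also lost without a filter, with the deposited normalized values and with 2 groups only (limma adjusted p = 0.111, 0.0507 and 0.0616). Its change in TrbE14 hearts was 1.13 (limma adjusted p = 0.103). The LIM-domain gene Lmo4 did not overlap with control in TrbE10 hearts, at 0.45 (limma adjusted p = 0.0917), nor did Ldb2, whose protein binds LIM domains, in TrbE14 hearts, at 0.55 (limma adjusted p = 0.259).

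**Figure D4:**
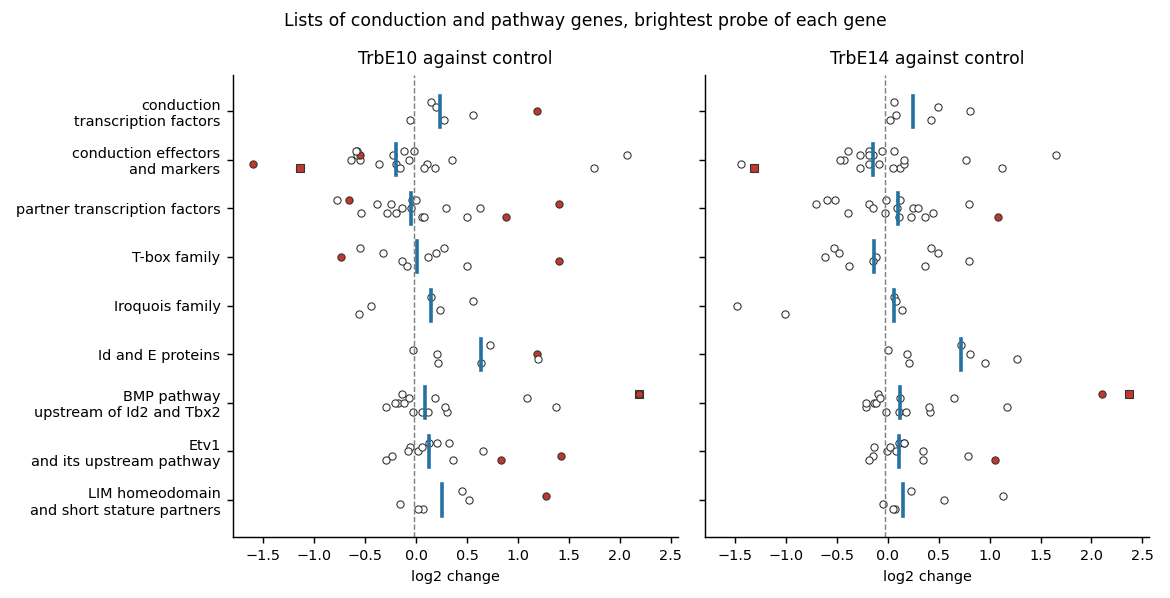
Log2 change against control (horizontal axes) in TrbE10 (left) and TrbE14 hearts (right) of the brightest tested probe of each gene in 9 lists of conduction and pathway genes. Red marks an adjusted p under 0.05 on that probe, blue bars are list medians, and dashed lines are medians of all genes. Squares are lower bounds for Bmp10, not well above background in control, and for Pcp4, not well above background in either mutant. The Id and E protein medians, 0.63 and 0.72, lie to the right of the all-gene lines, and Tbx20 is not red because its calls came from dimmer probes.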

How the data were processed

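The authors deposited the output of Agilent Feature Extraction 10.5 for each array, with the processed signal of every spot as a background-subtracted intensity, together with a matrix of log2 values quantile normalized between arrays and filtered on background. These deposited log2 values correlated with those computed here (r from 0.996 to 0.998 per array) and were used as an alternative.

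Intensities were log2-transformed and quantile normalized with limma 3.58.1 in R 4.3.3 (data.table version 1.17.8). Of 62976 spots, 3671 control spots were removed, outlier spots were set to missing (7 values among tested probes) and replicate spots were averaged. Probes well above background on at least 3 of 4 arrays in any group were kept, which left 24593 probes of 18021 gene names. The groups were fitted as means of 1 linear model with lmFit and eBayes, p-values were adjusted by Benjamini-Hochberg over all probes within a comparison, and a gene was called when a probe of it had an adjusted p under 0.05. Sizes are those of its brightest probe. The fit was tested on simulated data. The factors were also compared singly by 18 exact two-sided permutation tests over the 70 orders of labels. Figures were drawn with matplotlib 3.10.9 in Python 3.11.15.

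The factors and lists were chosen with earlier results of these data known. Named are all 8 factors with every probe, Nkx2-5, Gja5, list genes called in a mutant or, where at most 6 were called, without overlap with control, and the 3 most alike genes per factor. Of the cell type marker lists the called genes are named and the others are given through sums, medians or detection, a departure from this rule. Genes named outside this rule were chosen after their values were seen. The alternatives were 75th percentile scaling, normexp (offset 50), no filter or one on 9 of 12 arrays, the authors' log2 values, 2-group fits, a replicate block, Y-linked signal as a covariate, SAM at a false discovery rate of 5%, and each array left out.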

Additional observations from a re-analysis of the deposited data

Results flagged for a closer look

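Among 60 sets of 4 hearts, 18 of them for the conduction system transcription factors and the others for the named genes, 4 held a value set apart from its neighbour by more of the set's range than Dixon's 95% limit allows, and chance marks about 1 set in 20. The value of Tbx2 in TrbE10 replicate 4, 7.96, stood above a next highest value of 6.78. Y-linked signal was present in the former heart and not in the latter. It was also present in TrbE10 replicate 2, where Tbx2 read 6.69. The value of Nkx2-5 in TrbE10 replicate 2, 11.67, stood above 11.27. Prrx2 was high in replicate 1 of both mutants, at 7.11 in TrbE10 with a next value of 6.36 and at 6.998 in TrbE14 with a next value of 6.17.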

How the results depend on the processing

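Id2 in TrbE10 hearts kept its call in 8 of 9 other settings and in 2 of 8 fits without an array, and no other factor gained a call. Of 12 changes of single genes that turned with an array left out and 3 with another setting, all belonged to factors whose 95% confidence interval included 0. Over the named genes and factors together, calls were lost in 16 and gained in 7 results of other settings, and 366 kept both direction and call. The cause of these changes was not tested, except that leaving out the filter adds tests.

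Over all genes, TrbE10 against control gave 183 called genes without a filter and 246 from 2 groups only. TrbE14 against control gave 223 with normexp and 299 with SAM. Between the mutants, 75th percentile scaling, no filter and SAM each called 2 genes. The factors called in TrbE10 hearts were 0 without a filter. Of the conduction effectors, 0 were called in TrbE10 hearts without a filter and 1 from 2 groups only, and in TrbE14 hearts 2 with normexp, the authors' values, 2 groups only and SAM and 0 with the filter on 9 of 12 arrays.

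With an array left out, the factors called in TrbE10 hearts numbered 0 to 1, all genes 145 (without TrbE10 replicate 3) to 655 (without TrbE10 replicate 2) and conduction effectors 0 (without control replicate 4) to 4 (without TrbE10 replicate 2). In TrbE14 hearts all genes numbered 74 (without control replicate 3) to 104 and effectors stayed at 1, and between the mutants all genes numbered 0 to 1. Exact tests with p under 0.05 numbered 1 to 3. In TrbE10 hearts single calls were lost for Kcnd2 without each control array and TrbE10 replicates 1 and 3 (limma adjusted p up to 0.0912), Pcp4 without control replicates 3 and 4 and TrbE10 replicate 1 (up to 0.0594), and Scn10a without control replicate 4 and TrbE10 replicate 4 (up to 0.0680). They were also lost for Tbx1 without control replicates 1 to 3 and TrbE10 replicates 1, 3 and 4 (up to 0.0724), Tbx18 without control replicates 3 and 4 and TrbE10 replicates 1, 3 and 4 (up to 0.0874), Prrx2 without the same replicates and control replicate 1 (up to 0.112), and Nrg1 without TrbE10 replicate 3 (0.0537).

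The change of Etv1 in TrbE14 hearts was -0.0011 with 75th percentile scaling and -0.018 with normexp, and that of Irx3 between the mutants was -0.021 with normexp. With an array left out, Irx3 ranged from -0.026 to 0.29 in TrbE10 hearts, from -0.11 to 0.21 in TrbE14 hearts and from -0.033 to 0.18 between the mutants. Etv1 ranged from -0.15 to 0.030, from -0.030 to 0.071 and from -0.18 to 0.0047 in the same order, Irx5 in TrbE14 hearts from -0.13 to 0.31, and Tbx2 in TrbE10 hearts from -0.12 to 0.39.

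Same-numbered arrays of mutant and control did not deviate together (r from -0.24 to 0.079). Those of the mutants did for 3 of 4 numbers (r = 0.37, 0.31 and 0.48, against -0.0085 for replicate 3), and 6 of these 8 arrays correlated best with their own number, against 0 of 8 in each comparison with control. As not every pair did, the numbers were not taken as pairs. With the replicate number as a block, 1 gene was called between the mutants, Id2 in TrbE10 hearts kept its call (limma adjusted p = 0.0380) and Kcnd2 lost it (limma adjusted p = 0.0661). The slide as a block could not be fitted for TrbE10. Shox2 and Isl1 did not pass the filter and were fitted without it, where 0 factors were called. Averaging over probes did not apply, since each factor that passed the filter did so with 1 probe.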
